A study of Mus musculus with 19 samples.

Results

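The cytoplasmic ribosomal protein genes described here are the 82 genes, of 16233 in the table of all cells, whose symbols follow the standard names of the proteins of the large subunit (Rpl and Rplp, 51 genes) and of the small subunit (Rps and Rpsa, 31 genes). The rule reads symbols and uses no measured value. Pseudogenes, symbols with other endings such as Rps3a1 and Rpl36al, and the mitochondrial ribosomal proteins are not among them. Together they held 1036034 of 35709950 unique molecular identifiers (UMIs, each standing for 1 captured transcript), or 2.90%.

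Ribosomal proteins assemble with ribosomal RNA into the large and small subunits that translate every cytoplasmic mRNA, and each ribosome carries nearly all of them in equal amounts. Their mRNAs are short, stable and abundant in the cytoplasm, and most begin with a run of pyrimidines (a terminal oligopyrimidine tract) through which the mTORC1 kinase controls their translation as a group. In brain tissue their share of a cell's transcripts depends on the cell type and on how much cytoplasm, as against nucleus, was captured.

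Cells were dissociated from the medial amygdala, a forebrain region tied to social and defensive behaviour, of male C57BL/6J mice and profiled by Drop-seq, which captures single cells with barcoded beads in droplets. In all, 19 libraries carry labels: naive mice (6 libraries, all 8 weeks of age), mice affected by seizure (2, of 9 and 8 weeks), mice after immobilization (4, of which numbers 2 and 3 at 9 weeks and the others at 8 weeks), mice acutely exposed to odors (4, of which 1 and 2 at 9 weeks and the others at 8 weeks), and saline-injected controls (1, 8 weeks), all made with Act-Seq, a dissociation protocol built to limit transcription while tissue is taken apart; and 1 saline-injected and 1 seizure library, both of 8 weeks, made with a conventional dissociation. The labels do not say how seizures were induced, and the control for seizure in the table of all cells was naive and not injected. The labels do not tie libraries to animals; every p-value below is therefore set against library-to-library spread, part of which may be technical. They also describe the odor libraries as made for clustering and not for comparing immediate early genes.

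The table of all cells held 16 Act-Seq libraries of 43 to 2189 cells and 116492 to 3723521 UMIs; the table that compares dissociations held 5 libraries of 1123 to 2010 cells and 2102364 to 4309887 UMIs. Naive 5 (230 cells), naive 6 (43 cells) and immobilization 4 (182 cells) were the smallest libraries, and naive 6 reached the minimum of 10 cells in no class. Barcodes did not identify cells: 1116 barcodes of the dissociation table occurred in more than 1 library, 1115 of them shared between the conventional saline library and seizure 1. The counts followed the library label nevertheless. Cells were matched at a cosine of log counts over 0.95. Every one of the 1777 and 1123 cells named seizure 1 and seizure 2 in the dissociation table matched a cell of that same library in the table of all cells. Of these cells 0 matched a cell of the other seizure library or under the same barcode. These seizure cells therefore stand in both tables.

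Cell classes were the authors' own, read from the cell names. The 2444 cells of the authors' neuron table are called neurons here, and the 6206 further cells of their neuron class are called other neuron-class cells. For every glial and vascular class 7 or 8 of its 8 markers were highest in the class of that name. Of 8 neuron markers 7 were highest in the neurons, but the summed markers went against that label in most neuron clusters. In 14 of the 16 clusters the neuron markers summed to between 1601 and 2945 CPM, a gene's UMIs scaled to a common library total, and the astrocyte markers to between 5896 and 13822 CPM. Clusters N9 and N12 showed the opposite order, with 14474 and 64853 CPM of neuron markers against 2197 and 1644 CPM of astrocyte markers. Astrocytes themselves held 404 CPM of neuron and 24845 CPM of astrocyte markers. Summed markers were mixed in some other classes too. Oligodendrocyte precursors held 17137 CPM of oligodendrocyte markers, above their 9618 CPM of precursor markers. Endothelial cells held 14784 CPM of erythroid beside 29348 CPM of endothelial markers. Mural cells held 4120 CPM of fibroblast beside 32645 CPM of mural markers. The name neuron is kept below as the authors' label.

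The pyrimidine tract that is known for these mRNAs was searched for at the genes' starts, and not every member showed a run there. The windows are shown because that tract is the feature by which these mRNAs are regulated together. Of the 82 members, 62 matched a start in the RefSeq promoter table of mouse build GRCm38.p6, the assembly that the files' mm10 names. A run of at least 7 letters C or T beginning with C, searched on the gene's strand only and within 25 bases on each side of the start, occurred at 36 of these 62 genes (58.1%), and the median longest run was 8. Of all 27025 genes with a start there, 6929 (25.6%) held such a run, and the median longest run was 5. The windows below show 15 bases before and 15 bases from the start for 4 of the most abundant members, for 3 members with few UMIs and for Rpl22l1, a paralog whose level went its own way across classes. Capitals mark the pyrimidine run, where the longest run is shorter than 7 bases nothing is in capitals, and a match is a description of the letters, not a shown site.
Rpl13a: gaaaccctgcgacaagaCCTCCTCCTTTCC
Rps15: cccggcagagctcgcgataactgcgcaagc
Rps3: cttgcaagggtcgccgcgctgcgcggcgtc
Rpl41: cacacgggccggctcggaagtgacgacacc
Rps6: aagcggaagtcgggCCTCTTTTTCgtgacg
Rps27: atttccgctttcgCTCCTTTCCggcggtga
Rpl28: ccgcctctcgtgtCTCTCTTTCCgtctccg
Rpl22l1: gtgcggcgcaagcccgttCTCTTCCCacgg

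These windows lie, in the same order, at chr7:45128731-45128760 (minus strand), chr10:80292416-80292445 (plus), chr7:99483695-99483724 (minus), chr10:128549154-128549183 (minus), chr4:86857353-86857382 (minus), chr3:90213634-90213663 (minus), chr7:4792950-4792979 (plus) and chr3:28805493-28805522 (plus). Each spans the start of the named gene, with the upstream bases first. These genes were picked for their levels, so they show no relation between tract and level. Run lengths are those within the printed window. Rpl13a, whose run of 13 letters ends at the last printed base and may go on beyond it, gave 50933 UMIs. Rpl22l1, with 8, gave 8960. Rps6, Rps27 and Rpl28, with runs of 10, 9 and 10 letters, gave 230, 249 and 196 UMIs, and Rps15, Rps3 and Rpl41, whose longest run in the window was 3, gave 39075, 35617 and 34981.

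Members differed widely in level. Rplp1 (chr9:61913283-61914510 in GRCm38.p6), a stalk protein of the large subunit that helps to recruit elongation factors, was the most abundant, with 73749 UMIs in all cells (2065 CPM of all UMIs) and at least 1 UMI in 74.5% of cells. Rpl13a of the large subunit followed with 50933 UMIs, then Rps21 (44640), Rps14 (40982), Rps15 (39075), Rps24 (36601) and Rps3 (35617) of the small subunit, and Rpl41 (34981), the smallest protein of the ribosome. These 8 held 34.4% of all members' UMIs. The median member stood at 222 CPM, and 18 members had fewer than 1000 UMIs. Drop-seq counts 3′ ends, so these CPM are transcript shares that are not divided by length, and they also depend on how well each 3′ end was mapped and counted.

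The scarce members included genes whose proteins sit in every ribosome. Rps6, the small-subunit protein phosphorylated downstream of mTORC1, had 230 UMIs, Rps27 249, Rpl28 196, Rpl10 437 and Rpl12 600. Many ribosomal protein genes have processed pseudogenes with near-identical 3′ ends, and reads from them may be split or dropped by the authors' counting. Among the 41 members with at least 50% of the 50-base words of their last 300 transcript bases found in another gene's transcript, the median level was 111 CPM; it was 420.5 CPM for the 30 members with a smaller shared part and 245 CPM for the 11 with none. The 12 scarce members of the first kind were Rpl10, Rpl10a, Rpl17, Rpl23a, Rpl27, Rpl36a, Rpl5, Rpl9, Rps12, Rps27, Rps27a and Rps6, and their levels are uncertain for that reason. Over all 82 members the shared part and the log2 level had a Pearson r of -0.13, as a description across genes that are not independent. Rpl12 has no shared words and was scarce too.

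The 3 members under 100 UMIs were all paralogs: Rpl10l with 41, Rpl39l with 20 and Rpl3l with 16 UMIs. They are known from testis (Rpl10l, Rpl39l) and striated muscle (Rpl3l). Their parents Rpl10, Rpl39 and Rpl3 had 437, 15772 and 10021 UMIs. The other paralogs had more UMIs. Rpl22l1 had 8960 UMIs against 12851 of its parent Rpl22, Rps27l had 5303 against 249 of Rps27, and Rpl7l1 had 2382 against 6562 of Rpl7. Of these, Rpl22l1, Rps27 and Rpl7 share 61.2, 58.5 and 78% of their 3′ words with other genes, so their levels are uncertain too.

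The share of UMIs in ribosomal protein genes was highest in the neuron class and lowest in astrocytes and oligodendrocytes. It was 5.01% ± 0.493 in neurons (SD over 14 libraries) and 4.67% ± 0.798 in other neuron-class cells (n = 15). Endothelial cells held 3.67% ± 0.372 (n = 15), microglia 2.93% ± 0.586 (n = 15) and mural cells 2.23% ± 0.387 (n = 12). The lowest shares were those of oligodendrocyte precursors, 1.84% ± 0.207, astrocytes, 1.64% ± 0.214, and oligodendrocytes, 1.60% ± 0.207 (n = 15 each). Over all cells of a library the share was 2.85% ± 0.408 (n = 16). As a sum over many genes the share has no p-value here.

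Read within libraries, this order held at its ends and not between all neighbours. Neurons lay above each of the 6 glial and vascular classes in every library in which both could be measured (14 of 14, or 12 of 12 for mural cells), by 1.32 to 3.41 percentage points on average. Endothelial cells lay above microglia in 14 of 15 libraries, with a mean difference of 0.741 points and 1 library at -0.629. Neurons exceeded other neuron-class cells in 12 of 14 libraries by 0.273 points, which is less than the SD of that difference, 0.445. Astrocytes and oligodendrocytes could not be ordered: astrocytes were higher in 9 of 15 libraries, by 0.0330 ± 0.185 points. The direction turned with the weighting: as the mean of cells astrocytes stood at 1.29% ± 0.183 and oligodendrocytes at 1.57% ± 0.214, and in cells of 800 to 3000 UMIs at 1.27% and 1.52% (n = 15 each).

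**Figure D1:**
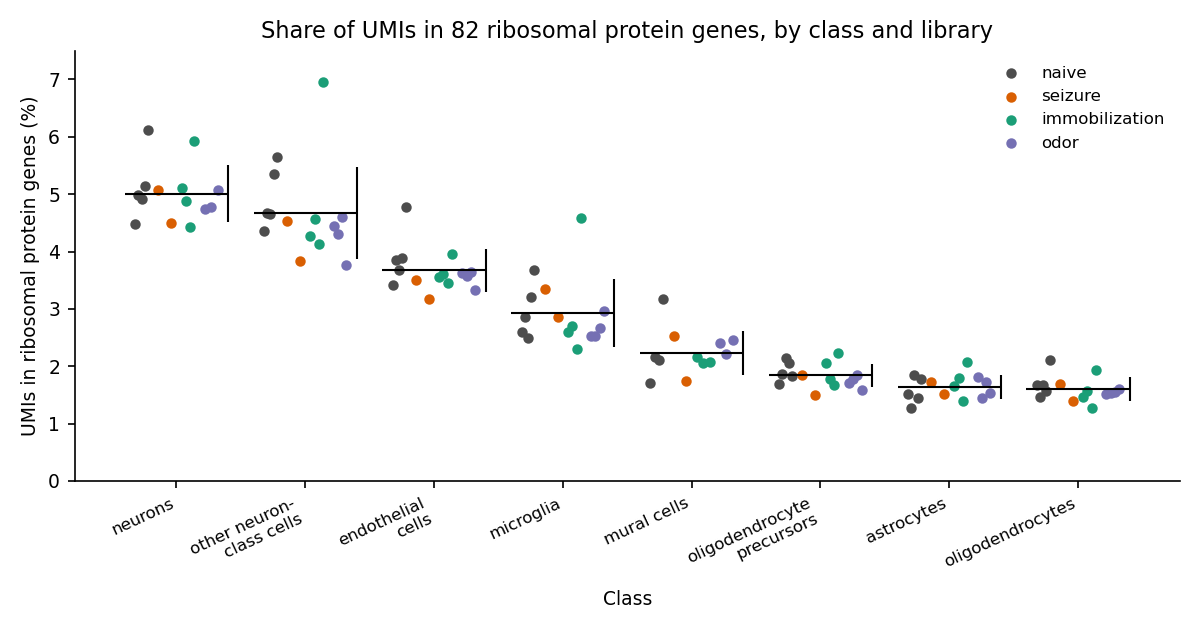
Percentage of UMIs in the 82 ribosomal protein genes for each class (x axis), 1 point per library with at least 10 cells of the class, coloured by group; horizontal lines are means and vertical bars at their right ends SDs over libraries. Neurons (4.42 to 6.12%) stand above oligodendrocytes, astrocytes and precursors in every library, and colours mix within each class.

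Depth and nuclear RNA moved with this share inside classes. Each class was split into 4 equal sets of cells by UMI number. Among astrocytes, the shallowest set (median 818 UMIs) had a pooled share of 0.915%, and the deepest (median 2998) had 2.18%. Neurons went the other way, from 5.48% in the shallowest set (median 1530 UMIs) to 4.68% in the deepest (median 4389). The share of the deepest astrocytes was below that of each set of neurons. The part of depth in the class differences was not tested further.

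Cells of 800 to 3000 UMIs were also split within each class into 3 equal sets by their share of long noncoding RNAs that stay in the nucleus (Malat1, Meg3, Neat1 and others). The ribosomal protein share was lower in the set with the most nuclear RNA than in that with the least in all 8 classes. It went from 1.55 to 1.15 to 0.851% in astrocytes, from 3.09 to 2.48% between the outer sets in microglia and from 5.32 to 4.55% in neurons. Both are shares of the same total, so a rise in one lowers the other by construction. The nuclear RNAs took 4.53% of UMIs in the high set of astrocytes and 2.11% in that of neurons. With nuclear RNA left out of the total, the share over all cells of a class was 5.05% ± 0.501 in neurons (n = 14) and 1.68% ± 0.213 in astrocytes (n = 15). The part of nuclear RNA in the class differences was not tested. Malat1, the most abundant nuclear RNA, ranged from 2889.6 and 3706 CPM in other neuron-class cells and neurons to 10367 to 23089 CPM in the glial and vascular classes.

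Among the authors' 16 neuron clusters, 2 stood apart. Cluster N12 had the lowest share, 2.43% ± 1.40 (7 libraries with at least 5 of its cells, from 0.948 to 4.92%), and N9 the next, 3.31% ± 0.762 (11 libraries, from 1.51 to 4.33%). The other 14 clusters lay between 4.60% ± 0.419 (N13, 12 libraries) and 6.01% ± 0.653 (N11, 12 libraries), followed from the top by N10 with 5.71%, N6 with 5.44%, N8 with 5.38%, N7 with 5.37% and N16 with 5.28%. Neighbours in this order of 14 differed by less than their SDs over libraries.

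The 2 clusters with low shares were those with high nuclear RNA and with neuron markers above astrocyte markers. Meg3, a long noncoding RNA of neuronal nuclei, stood at 61706 CPM in N12 and 10547 CPM in N9 against 136 to 541 CPM in the other 14 clusters. Malat1 stood at 28818 and 10166 CPM against 860 to 4981. Aldoc, a glycolytic enzyme of astrocytes, showed the reverse, with 844 and 1054 CPM against 3078 to 6040 CPM in the other clusters and 5268 CPM in astrocytes. Without Meg3 the neuron markers still summed to 3147 CPM in N12 and 3927 CPM in N9 and to 1358 to 2521 CPM elsewhere. Median depth did not separate them, at 2008 and 2141 UMIs against 1835 to 3201.

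**Figure D2:**
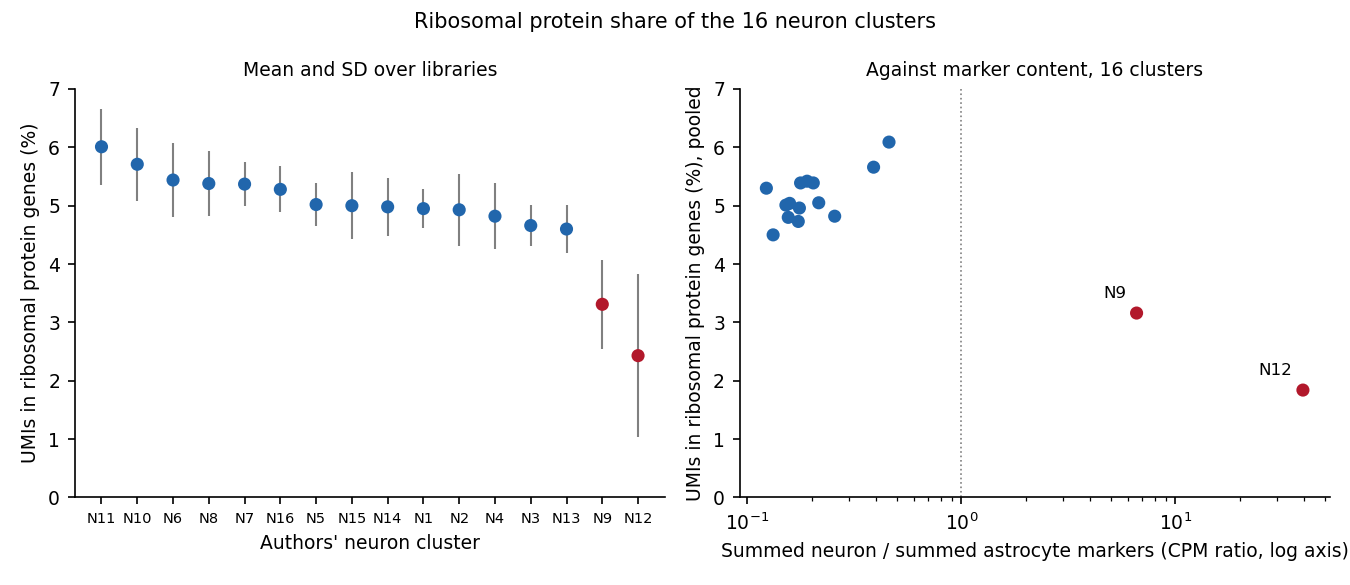
Left, mean ribosomal protein share with SD over libraries for the authors' 16 neuron clusters, ordered by mean. Right, the pooled share of each cluster against the ratio of summed neuron to summed astrocyte marker CPM on a log axis; red marks N9 and N12, at ratios of 6.59 and 39.4 with shares of 3.16% and 1.84%, and blue the other 14 clusters, at ratios of 0.123 to 0.459.

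Gene by gene, nearly all measurable members were higher in neurons than in astrocytes. Counts summed per library and class were compared with edgeR's quasi-likelihood test over 14 libraries, with library as a block and Benjamini-Hochberg adjustment over 10286 genes. In neurons 71 of 76 tested members were higher and 0 lower at an adjusted p under 0.05, where 33.3% of all genes were higher and 36.0% lower. The median member differed by a log2 of 1.5 and the median gene by -0.04. The authors' classes were built from these cells, so such calls describe the classes. With relative log expression (RLE) scaling the median of all genes moved to -0.24 and that of members to 1.32, with 71 members higher and 1 lower. Both subunits took part, with 43 of 47 large-subunit members and 28 of 29 small-subunit members higher.

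The members with the largest neuron-to-astrocyte differences came from both subunits. Rpl15 was higher by a log2 of 1.98 ± 0.16 (SE, adjusted p 5.9e-21), at the low level of 54.9 CPM in neurons. Rplp1 was higher by 1.97 ± 0.09 (adjusted p 1.8e-41): it ranged from 3379 to 4979.7 CPM in neurons, with a median of 3867, and from 742 to 1421 CPM in astrocytes, with a median of 972. The lowest neuron value lay above the highest astrocyte value. Rpl37 (1.96) and Rpsa (1.89), the small-subunit protein also known as the laminin receptor, followed. The remaining stalk proteins Rplp0 and Rplp2 were higher by 1.23 and 1.48. The 5 members not called were Rpl10 (0.56 ± 0.26), Rpl27 (0.29 ± 0.19) and Rpl10a (0.20 ± 0.22) and the paralogs Rps27l (0.14 ± 0.10) and Rpl7l1 (-0.09 ± 0.12).

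The count differed between neuron clusters. With neurons limited to the 14 clusters other than N9 and N12, 72 of 76 members were higher and 0 lower, with a median of 1.59, and 7064 of 10117 genes were called in either direction. With neurons limited to N9 and N12, 13 of 68 tested members were higher and 3 lower, with a median of 0.19 beside -0.26 for all genes, and 4626 of 9472 genes were called in either direction. These limits were chosen after the data were seen, and the difference between the 2 sets of clusters was not tested.

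Endothelial cells, which line the vessels, were higher than astrocytes in 61 of 76 members and lower in 0 (29.6% and 37.0% of all genes), with a median log2 of 0.95. Rpl22 (1.54 ± 0.09), Rps4x (1.42 ± 0.11), the copy of Rps4 on the X chromosome, and Rpl7 (1.36 ± 0.11) were among the members with the largest differences. Rpl22 ranged from 504 to 893 CPM in endothelial cells and from 169 to 310.2 CPM in astrocytes, without overlap. Of the 64 members with at least 1000 UMIs, 46 had their highest class mean in neurons and 9 in endothelial cells, among them Rps14, Rpl22, Rpl23, Rps4x, Rpl18, Rpl7, Rps27l and Rps16.

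In microglia, the resident macrophages of the brain, 66 members were higher than in astrocytes and 1 lower (34.1% and 37.1% of all genes), with a median log2 of 0.71. Among the largest differences were those of Rpl10 (1.85 ± 0.27), at 36.0 against 9.87 CPM, Rpl12 (1.49 ± 0.24) and Rps9 (1.34 ± 0.09). Rps9 ranged from 984 to 1759 CPM in microglia and from 348 to 589 CPM in astrocytes, without overlap. The single lower member was Rpl22l1, by -0.68 ± 0.11 (adjusted p 4.3e-08), with a range of 61.5 to 136 CPM in microglia and 123 to 268 CPM in astrocytes. It was above the astrocyte value of the same library in 1 of 14 libraries. With scaling factors computed without the members, 57 members were higher and 5 lower in microglia, and with no filter on low counts 59 and 6.

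Oligodendrocytes, the myelin-forming cells, came out close to astrocytes. In this comparison 19 members were higher and 10 lower (27.6% and 38.4% of all genes), with a median log2 of 0.06 beside -0.17 for all genes. The split depended on the scaling: it was 10 higher and 22 lower with RLE factors and 10 and 23 with DESeq2, while the distance of the median member from the median gene stayed between 0.21 and 0.37 under each setting tried. Lower were Rpl10a (-1.26 ± 0.29), Rpl23a (-0.75 ± 0.22), Rpl22l1 (-0.46 ± 0.10) and Rpl31 (-0.34 ± 0.14). Among those higher were Rps27a (0.92 ± 0.21), which encodes a fusion of ubiquitin with a ribosomal protein, Rplp0 (0.68 ± 0.08) and Rps3 (0.55 ± 0.08), known for its place at the mRNA entry channel.

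**Figure D3:**
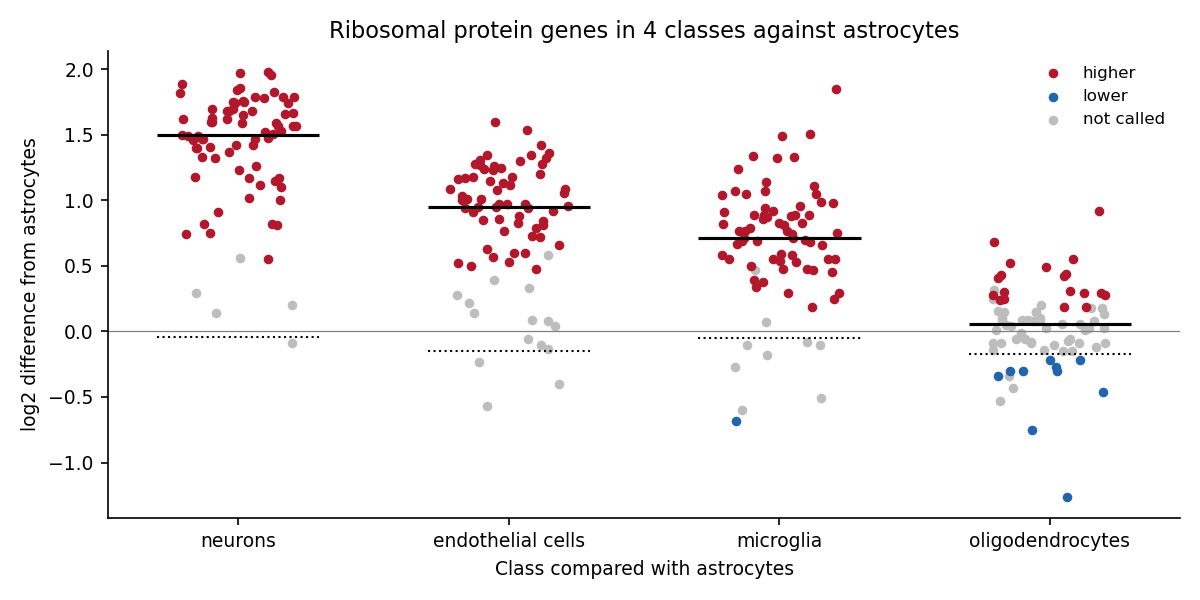
Log2 difference of each of 76 tested members between 4 classes (x axis) and astrocytes, 1 point per gene; red points were called higher, blue lower and grey not called, solid lines are medians of members (1.5, 0.95, 0.71 and 0.06) and dotted lines medians of all tested genes.

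Other genes of translation were read from lists that overlap, since Eef1a1, Eef1g and Eef2 are both elongation factors and pyrimidine tract mRNAs. In neurons 6 of 8 elongation factor genes were higher than in astrocytes and 1 lower, with Eef1a1 by a log2 of 1.52, Eef2 by 1.43 and Eef1a2, the isoform of neurons and muscle, by 2.76. Of 16 further mRNAs known to carry a terminal pyrimidine tract, 15 were higher and 1, Vim, was lower (-3.01). Initiation factors gave 23 higher and 5 lower of 44, ribosome biogenesis genes 16 and 8 of 37, and mitochondrial ribosomal proteins 25 and 11 of 72. Of all genes 33.3% were higher and 36.0% lower in neurons. The mitochondrial count of higher genes is thus near the share of any gene. In endothelial cells, where 29.6% of all genes were higher and 37.0% lower, the pyrimidine tract list gave 15 higher and 0 lower of 16. The mitochondrial ribosomal proteins gave 4 higher and 28 lower of 72 there. In microglia these lists gave 10 and 1 of 16 and 7 and 39 of 72 (34.1% and 37.1% of all genes).

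Regulators of mTORC1 gave 3 higher and 5 lower of 16 in neurons and 1 higher and 10 lower of 16 in oligodendrocytes. Of all genes 33.3% were higher and 36.0% lower in neurons, and 27.6% and 38.4% in oligodendrocytes. Ddit4, an inhibitor of mTORC1, was lower in neurons (-1.11 ± 0.16) and higher in endothelial cells (1.04 ± 0.16).

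Most members kept similar proportions to each other in every class, and a few did not. The proportion is a member's percentage of all members' UMIs in the class, and among the 64 members with at least 1000 UMIs it varied most for Rps27l (SD over 8 classes of 0.816 on the log2 scale), Rpl7l1 (0.815), Rpl24 (0.698), Rpl13 (0.565), Rpl22l1 (0.522), Rpl7a (0.491), Rpl38 (0.450) and Rpl7 (0.447). By comparison it was 0.154 for Rps14 and 0.168 for Rpl13a. Rpl24 and Rpl7a were low, at 40.5 and 34.6 CPM over all cells, and 6 of these 8 members share most of their 3′ words with other genes: Rpl13, Rpl24, Rpl7a, Rpl7, Rpl22l1 and Rpl38.

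The paralogs were among the most variable. Rps27l, known as a gene activated by p53, made up 0.269% of member UMIs in neurons and 1.30% in oligodendrocyte precursors. As a level it stood at 121 ± 48.7 CPM in neurons (n = 14) and 124 ± 19.3 CPM in astrocytes (n = 15) and was highest in endothelial cells (305 ± 104 CPM) and precursors (240.3 ± 56.3 CPM). Rpl7l1, which acts in ribosome assembly, stood at 118 ± 25.3 CPM in precursors and 129.8 ± 67.5 CPM in microglia and between 44.4 and 93.0 CPM in the other classes.

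Rpl22l1 and its parent Rpl22 differed in pattern. Rpl22l1 reached 484 ± 73.3 CPM in neurons, close to the 495 ± 87.8 CPM of Rpl22. In microglia it stood at 111 ± 51.0 CPM against 483 ± 75.4 CPM of Rpl22, and in endothelial cells at 173 ± 34.7 against 710.3 ± 107 CPM. The paralog was thus near its parent in neurons and well below it in both of these classes, with no overlap between the ranges over libraries in either.

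Rpl13 (chr8:123102350-123105244), a core protein of the large subunit, was high in oligodendrocyte precursors. It made up 3.27% of member UMIs there and 0.983 to 1.17% in the other 7 classes. Its level in precursors ranged from 364 to 877 CPM over 15 libraries, overlapping the 477 to 1245 CPM of neurons, and was above the 156 ± 30.9 CPM of oligodendrocytes (119 to 207) and the 188 ± 47.9 CPM of astrocytes (149.5 to 348). The ranges of precursors and of these 2 classes did not overlap. Precursors were not part of the tested contrasts, and Rpl13 was singled out by its spread, so these values are a description. Of its 3′ words 83.3% occur in another gene's transcript, and 13 such genes are annotated pseudogenes.

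Likeness to the members' sum was taken over 116 sums of a class in a library, as Pearson r of log2 of CPM plus 10. These points share libraries and classes, so r is a description. The sum includes each member itself, so part of a member's r is built in. The share of all genes with an r above 0.5 is not given here. Of the 64 members with at least 1000 UMIs, 56 had an r above 0.5, with a median of 0.84. The genes outside the rule with the highest r were Rps3a1 (0.893), itself a small-subunit protein with another form of symbol, Cox7a2l (0.843), Eef1g (0.807), an elongation factor subunit, Wdr89 (0.80) and Pfdn5 (0.799), a prefoldin subunit.

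The dissociation method was compared over 5 libraries. The share of UMIs in members was 2.87% in saline 7 (95% Wilson interval 2.86 to 2.89), 3.39% in seizure 1 (3.37 to 3.41) and 2.54% in seizure 2 (2.51 to 2.56), all Act-Seq, and 1.41% (1.40 to 1.42) and 1.63% (1.61 to 1.64) in the conventional saline and seizure libraries. The intervals cover counting error only. The 3 Act-Seq libraries lay above both conventional ones without overlap, and the 2 Act-Seq seizure libraries differed from each other by more than the 2 conventional ones did.

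In the test over genes 55 of 79 tested members were lower after conventional dissociation and 0 higher, by edgeR's quasi-likelihood test with terms for seizure and method. Of all 13607 genes 8.44% were lower and 8.36% higher. The median member stood at a log2 of -0.80 and the median gene at 0.01. Of 48 large-subunit members 33 were lower, and of 31 small-subunit members 22. With 1 library per method and treatment except Act-Seq seizure, the fit has 2 residual degrees of freedom, and the count fell to 13 without the conventional saline library, 18 without the conventional seizure library and 19 without saline 7. In sums over all cells, fewer cells of a type and less RNA per cell cannot be told apart.

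Rpl38 (chr11:114667818-114672333), known for its role in translating a subset of mRNAs in development, had the smallest p. It stood at 273, 227 and 200.3 CPM in saline 7, seizure 1 and seizure 2 and at 69.6 and 71.8 CPM in the conventional saline and seizure libraries, a log2 of -1.80 ± 0.17 (adjusted p 3.6e-04). Rpl37 went from 590, 706 and 504 CPM to 185 and 199 CPM (-1.68 ± 0.20). Rps15, a small-subunit protein near the decoding site, went from 1071, 1279 and 978 CPM to 375 and 478 CPM (-1.41 ± 0.19). In all 3 genes both conventional libraries lay below every Act-Seq library.

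The next members by p were Rps28 (-1.27 ± 0.17), Rps19 (-1.29 ± 0.18), known from Diamond-Blackfan anaemia, Rpl41 (-1.28 ± 0.18), Rpl31 (-1.28 ± 0.19) and Rps24 (-1.35 ± 0.21), with adjusted p of 0.002 to 0.003. The 24 members not called had log2 values from -0.70 to 0.49. They included the paralogs Rpl22l1 (-0.38 ± 0.21), Rps27l (-0.36 ± 0.16) and Rpl7l1 (-0.16 ± 0.17), as well as Rpl24 (0.49 ± 0.22), Rpl5 (0.10 ± 0.22), which binds the p53 regulator Mdm2, and Rps6 (-0.41 ± 0.35).

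The makeup of the libraries moved with the method, and its part in the result over all cells was read only by leaving cells out. Clustering without members and immediate early genes gave a largest cluster of 1815 cells, led by Kif5a, a neuronal kinesin. It was left unnamed because its leading genes held too few markers of any class. It held 36.7, 38.2 and 31.0% of the cells of saline 7, seizure 1 and seizure 2 and 0.798 and 2.81% of the conventional saline and seizure libraries. Its ribosomal protein share was 4.83%, and Malat1 stood at only 883 CPM in it. Of its 1026 seizure cells that could be matched by counts to the table of all cells, the authors call 375 (36.5%) neurons and 616 other neuron-class cells.

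Neuron-like cells of the conventional libraries looked different. They formed a cluster of 360 cells with 22388 CPM of Meg3 and 10675 CPM of Malat1, which held 11.6 and 9.76% of the cells of the conventional saline and seizure libraries. Its ribosomal protein shares there were 1.27 and 0.946%. No Act-Seq library held 10 of these cells, so the cluster gives no comparison between methods. Unnamed clusters of 224 and 174 cells, with 2 neuron markers each among their leading genes, also reached 10 cells only in conventional libraries. They held 6.22 and 7.18% of the conventional saline cells and 7.88 and 2.26% of the conventional seizure cells. Their ribosomal protein shares were 0.647 and 1.53%. An unnamed cluster of 102 cells, with a share of 5.91%, reached 10 cells only in seizure 1, which held 86 of them. Another of 57 cells, with a share of 0.611%, reached 10 cells in each Act-Seq library and in no conventional one.

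Without the largest cluster, an alternative chosen after the data were seen, the shares were 1.99, 2.57 and 1.83% in the Act-Seq libraries and 1.40 and 1.58% in the conventional ones, still without overlap. Then 5 of 79 members were lower and 0 higher, where 5.24% of all genes were lower, with a median log2 of -0.34. They were Rpl38 (-1.07 ± 0.17), Rpl37 (-0.86 ± 0.20), Rps19 (-0.71 ± 0.20), Rps15 (-0.70 ± 0.19) and Rps28 (-0.63 ± 0.18), with adjusted p from 0.004 to 0.050. At an unadjusted p under 0.05 there were 27 members, 26 of them lower. The share of all genes at that level is not given here, so this count is only a description. The share called is near the background, while the median member lay below the -0.01 of all genes.

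**Figure D4:**
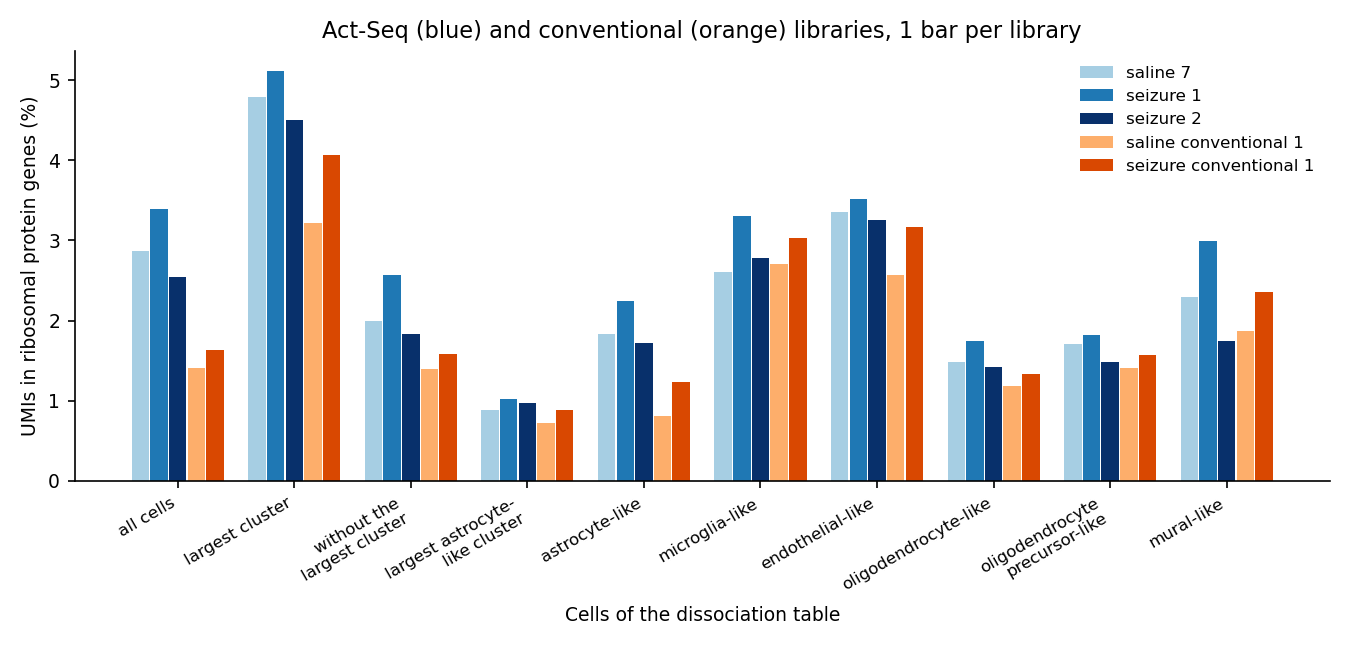
Percentage of UMIs in ribosomal protein genes in the 3 Act-Seq libraries (blue) and 2 conventional libraries (orange), 1 bar per library, for all cells, the largest cluster, all other cells and marker-named clusters. The methods are apart over all cells (2.54 to 3.39% against 1.41 and 1.63%) and overlap in microglia-like cells (2.61 to 3.30% against 2.71 and 3.03%).

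Within marker-named clusters, members passed the test in astrocyte-like cells. There 31 of 72 members were lower and 0 higher (2.82% of all genes lower), with a median log2 of -0.71, led by p by Rpl38 (-1.48 ± 0.22), Rpl37 (-1.28 ± 0.19) and Rps24 (-1.16 ± 0.17). The astrocyte-like cells join clusters of unlike depth. A deep one, with a share of 2.99%, held 5.62 to 6.86% of the cells of the Act-Seq libraries and 0.691 and 1.01% of the conventional ones. In the largest astrocyte-like cluster taken alone the shares were 0.890, 1.02 and 0.970% against 0.728 and 0.884%, and 0 of 61 members were called by edgeR (0.233% of all genes lower), with 8 at an unadjusted p under 0.05, all lower.

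In the other named cells no member was called by edgeR. Microglia-like cells gave 0 of 60 (3.14% of all genes in either direction, 2 members at an unadjusted p under 0.05) and a median log2 of 0.15. Endothelial-like cells gave 0 of 59 (0.252%, 4 members unadjusted), oligodendrocyte-like cells 0 of 65 (0.969%, 8), precursor-like cells 0 of 57 (0.303%, 5) and mural-like cells 0 of 26 (3.77%, 0). The median log2 of members lay between -0.19 and -0.11 in these 4. DESeq2 was not run within named cells. In microglia-like cells 19 of 19 tested immediate early genes were higher.

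Among the other lists over all cells, 4 of 8 elongation factor genes were lower after conventional dissociation and 0 higher, namely Eef2 (-1.03 ± 0.18), Eef1a1 (-0.80 ± 0.16), Eef1g (-0.85 ± 0.18) and Eef1d (-0.59 ± 0.15). Of 16 further pyrimidine tract mRNAs 6 were lower, of 47 initiation factors 2 and of 76 mitochondrial ribosomal proteins 2. Of all genes 8.44% were lower and 8.36% higher. In ribosome biogenesis 2 of 45 were higher, Nop56 and Wdr75. Of 7 tested nuclear long noncoding RNAs 5 were higher, with Snhg11 by 3.20 and Meg3 by 2.76, and 1, Neat1, was lower by -1.22. Immediate early genes, the transcripts that the Act-Seq protocol aims to hold down, were higher in 16 of 27 and lower in 0.

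After seizure, immobilization or odor exposure, no ribosomal protein gene passed the test in any class. Each comparison held 532 pairs of a member and a class over 8 classes, tested against naive libraries with edgeR in 1 fit per class. The number called was 0 after seizure (0.278% of all gene and class pairs were called), 0 after immobilization (0.782%) and 0 after odor (0.253%). DESeq2 also called 0 of 651 pairs in each. At an unadjusted p under 0.05, edgeR gave 16, 34 and 32 member pairs (3.01, 6.39 and 6.02% of pairs, against 4.85, 6.74 and 6.21% of all pairs) and DESeq2 13, 15 and 20. Restricting the fits to libraries of at least 300 cells, which leaves out naive 5 and immobilization 4, also gave 0 in each comparison.

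Median log2 changes of members were -0.05, -0.11 and -0.08 after seizure, immobilization and odor, with median SEs of 0.25, 0.21 and 0.22. A log2 beyond 1 in either direction was fitted for 9, 2 and 7 of 532 pairs, or 1.69, 0.376 and 1.32%. Of all gene and class pairs, 3.54% went beyond 1 after seizure and 2.48% after odor. After immobilization the share of all pairs was also above that of members. Members thus went beyond 1 less often than all genes in each comparison. The unadjusted low p-values lay mostly on the lower side, 13 of 16, 28 of 34 and 26 of 32. How all gene and class pairs at that level split by direction is not given here, so this split is only a description. The 3 comparisons share the naive libraries, and naive 5 had the highest share of the 5 naive libraries in neurons (6.12%) and other neuron-class cells (5.64%).

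The shares overlapped too. Neurons held 5.13% ± 0.604 in naive (n = 5), 4.78% ± 0.420 in the seizure libraries (n = 2), 5.08% ± 0.633 with immobilization (n = 4) and 4.87% ± 0.176 with odor (n = 3). The largest difference from naive among the 8 classes was -0.749 points, in other neuron-class cells after seizure (3.83 and 4.54% against 4.35 to 5.64%). Endothelial cells stood at 3.93% ± 0.514 in naive and at 3.34, 3.64 and 3.54% after the 3 treatments. In every class and comparison the ranges of the 2 groups overlapped.

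The pairs with the smallest p-values show the spread. After seizure, Rps25 in oligodendrocyte precursors stood at 107 and 64.6 CPM against 112, 198, 184, 222 and 452 CPM in naive 1 to 5 (log2 -1.21 ± 0.37, adjusted p 0.37). Rpl10a in microglia stood at 21.3 and 17.8 CPM against 71.4, 32, 63.9, 63.2 and 191 CPM (-1.71 ± 0.60, adjusted p 0.45). Rpsa in precursors stood at 60.7 and 19.4 CPM against 68.7 to 186 CPM (-1.28 ± 0.49, adjusted p 0.79). In these 3 pairs both seizure libraries lay below all 5 naive ones, and the pairs were chosen for their small p.

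After immobilization, Rpl8 in astrocytes, a protein next to the peptidyl transferase centre, came nearest to the threshold. It stood at 487 to 657 CPM, highest in immobilization 4, against 448, 358, 432, 302 and 282 CPM in naive 1 to 5, without overlap, with a log2 of 0.44 ± 0.13 (adjusted p 0.081). Rpl30 and Rpl18 in microglia were fitted at -0.71 ± 0.24 and -0.60 ± 0.22 (adjusted p 0.17 and 0.25), with immobilization 4 apart from the other 3 libraries: Rpl18 stood at 179.9, 161 and 185 CPM and at 484 CPM in immobilization 4, against 207 to 387 CPM in naive libraries.

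After odor, Rps15 in precursors stood at 228 to 424 CPM against 318 to 884 CPM (-0.73 ± 0.25, adjusted p 0.99). Rplp1 in microglia stood at 1739, 1635, 1934 and 1936 CPM against 1763 to 2671 CPM (-0.37 ± 0.13, adjusted p 0.83). Rpl23 in endothelial cells stood at 355 to 543 CPM against 464 to 824 CPM (-0.61 ± 0.21, adjusted p 0.55). The groups overlapped in all 3.

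**Figure D5:**
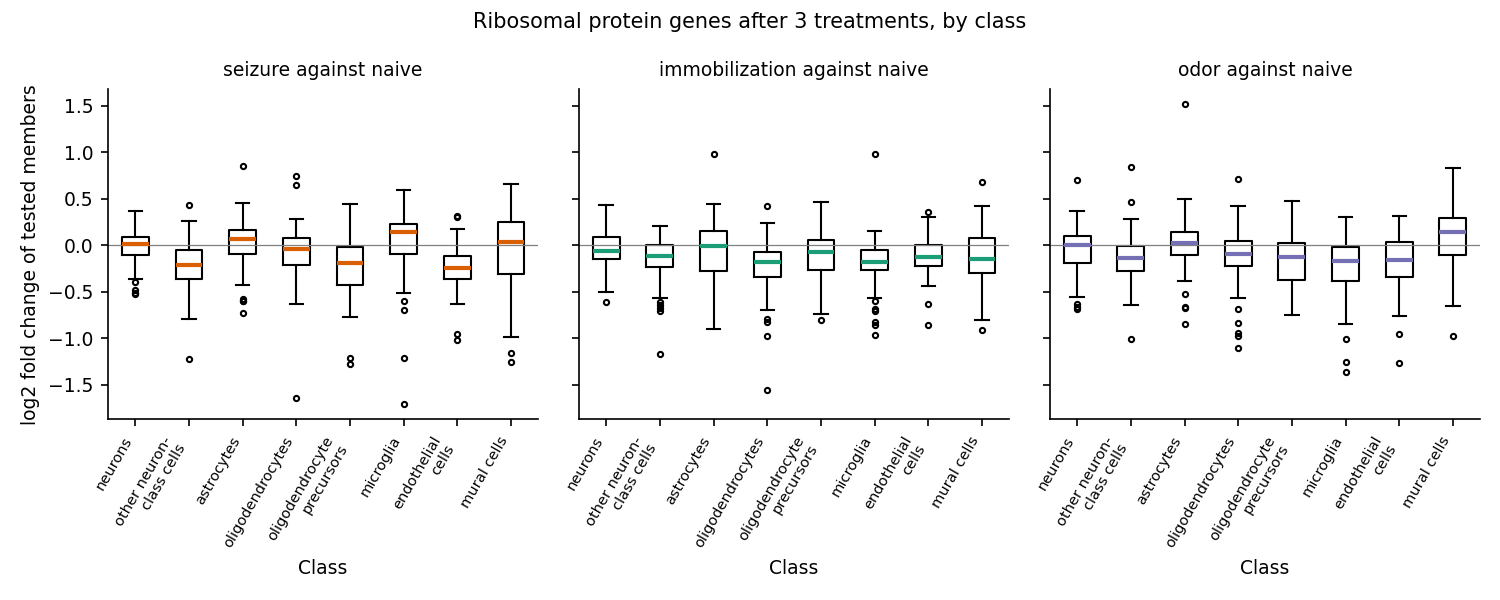
Log2 fold changes of all tested ribosomal protein genes against naive, by class, after seizure, immobilization and odor; boxes span the quartiles, coloured lines are medians, whiskers reach 1.5 box lengths and circles are genes beyond. Medians lie between -0.25 and 0.14 in every class and comparison.

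Among 79 pairs of an mTORC1 regulator and a class, 3 were higher after seizure, 5 after immobilization and 2 after odor, and 0 lower. Among all gene and class pairs 0.278, 0.782 and 0.253% were called in either direction. All of the mTORC1 regulator pairs called were Ddit4 except 1 pair of Sesn1 after immobilization. Of 52 elongation factor pairs 1 was called, after immobilization, and of 306 initiation factor pairs 0 in each comparison by edgeR. Ddit4, an inhibitor of mTORC1, was higher in microglia by a log2 of 3.18 ± 0.32 after seizure, 3.91 ± 0.27 after immobilization and 2.80 ± 0.29 after odor. It was also higher in oligodendrocytes (1.46, 1.31 and 0.89) and, after seizure and immobilization, in astrocytes (0.82 and 0.76), and after immobilization in endothelial cells (1.54 ± 0.28). In microglia, where Ddit4 changed most, the median member stood at 0.14, -0.18 and -0.17 and 0 of 71 members were called by edgeR in each comparison, where 0.431, 1.46 and 0.0923% of all genes were. Eef2k, the kinase that inhibits elongation factor 2, was higher in microglia after immobilization (0.84 ± 0.23, adjusted p 0.046).

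Immediate early genes gave 43 higher and 1 lower of 104 gene and class pairs after seizure, 16 higher and 3 lower after immobilization and 3 higher and 1 lower after odor. Among mitochondrial ribosomal proteins only Mrpl41 was called, higher in astrocytes after immobilization (0.70 ± 0.15) and odor (0.92 ± 0.15). After odor, Meg3 (-2.59 ± 0.41), Snhg11 (-2.24 ± 0.39) and Miat (-2.71 ± 0.53) were lower in neurons, where 0 of 75 members (0.125% of all genes) were called by edgeR, with 3 at an unadjusted p under 0.05.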

How the data were processed

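Drop-seq UMI counts from dissociated mouse medial amygdala were used as deposited: the authors counted UMIs per gene and cell after alignment with STAR 2.5.0a to mm10, with bcl2fastq 2.17.1.14 for base calls, per the submitters' processing notes. Whether counting used strand, and how cells were filtered, is not given in the sources here. Classes and neuron clusters come from the authors' cell names. Counts were summed per library and class with at least 10 cells (neuron clusters 5) and tested with edgeR 4.0.16 in R 4.3.3 (quasi-likelihood, TMM scaling, filterByExpr, Benjamini-Hochberg adjustment over all genes of a fit, threshold 0.05). An SE is the size of the log2 value divided by the square root of F. DESeq2 1.42.0, RLE scaling, no filter, libraries of at least 300 cells, and each library left out were alternatives. The fits were tested on simulated data with 200 changed genes. The dissociation table has no deposited classes: its cells were grouped by the Leiden method (leidenalg 0.10.2, resolution 0.8) on 15 neighbours in 30 principal components of 2000 variable genes, leaving out members and immediate early genes, and clusters were named from markers. No doublet caller was run. Intervals for shares are 95% Wilson intervals.

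The members, lists and markers were chosen with earlier results of these data known. The rule for named genes took the 8 members with the most UMIs and those under 100, the 4 largest differences in each direction per class contrast, the 8 smallest p for dissociation, the 3 smallest p per treatment where none passed, the 8 most variable proportions, and the paralogs. Genes named besides these were chosen after their values were seen. Leaving out the largest cluster, taking the largest astrocyte-like cluster alone and splitting the neuron clusters were chosen after seeing the data. Some members that this rule takes are not reported here by name.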

Additional observations from a re-analysis of the deposited data

Results flagged for a closer look

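The ribosomal protein share of other neuron-class cells was 6.95% in immobilization 4 and between 4.13 and 4.56% in the other 3 immobilization libraries. The gap from this library to its nearest neighbour was 0.849 of the group's whole range, above the 95% critical value of 0.829 for 4 samples. Immobilization 4 has 182 cells in all, 38 of them in this class. Of 24 groups of libraries examined in this way it was the only one marked, and chance marks about 1 in 20.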

How the results depend on the processing

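After immobilization 1 member was called with no filter on low counts, and leaving out 1 library gave 0 to 1 (1 without naive 1 and 1 without naive 3); after odor it gave 0 to 1 (1 without odor 2). Replicate numbers are not stated to pair libraries (8 of 18 pairs correlated above 0.1), and a fit with the replicate block called 0 in each of the 3 comparisons. With conventional dissociation, leaving out 1 library gave 13 to 56 calls beside 55, depending on the library. The count was 5 without the largest cluster, 31 within astrocyte-like cells, and 0 within the largest astrocyte-like cluster, microglia-like, endothelial-like, oligodendrocyte-like, precursor-like and mural-like cells; the cause was not tested. Log2 values turned positive in microglia-like cells for Rpl38 (0.01), Rps15 (0.27), Rps28 (0.19), Rps19 (0.19), Rpl41 (0.25) and Rps24 (0.12), in precursor-like cells for Rps28 (0.30) and Rpl31 (0.09), in endothelial-like cells for Rpl41 (0.13) and in the largest astrocyte-like cluster for Rpl31 (0.15); the cause was not tested. Neurons of N9 and N12 gave 16 differing members, and oligodendrocytes 14 in naive libraries only, a fit with fewer samples; the cause was not tested. Astrocytes had a share of 1.29% as the mean of cells and 1.27% in cells of 800 to 3000 UMIs, and N1 5.30% in the latter. As the mean of cells, without nuclear RNA and in cells of 800 to 3000 UMIs, the shares were 2.80, 2.89 and 2.71% in saline 7, 3.32, 3.43 and 3.29% in seizure 1, 2.51, 2.58 and 2.45% in seizure 2, 1.36, 1.46 and 1.35% in the conventional saline and 1.60, 1.67 and 1.60% in the conventional seizure library. The Act-Seq libraries stayed above the conventional ones. Depth limits the members under 1000 UMIs and the small libraries most.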
